A study of Mus musculus with 8 samples.

Results

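Heat shock proteins and their J-domain partners form the main machinery that folds proteins in the cell. HSP70 proteins bind unfolded stretches and release them in an ATP cycle, J-domain (DNAJ) proteins bring clients and start the cycle, nucleotide exchange factors end it, and HSP90, the HSP60 ring and small heat shock proteins act before or after. Cytosolic members are under heat shock factor HSF1, members of the endoplasmic reticulum (ER) under the unfolded protein response, and mitochondrial members fold proteins that are imported into the matrix. The genes described here are the rows of the deposited count table whose names begin with Hspa, Hspb, Hspd, Hspe or Hsph and a digit, with Hsp90, or with Dnaja, Dnajb or Dnajc and a digit, without pseudogene names. There were 72 of them among 54532 rows, and 14 pseudogene names were left out, copies whose reads can be confused with those of Hspd1, Hspe1, Hspa9, Dnaja1 and Dnajc19. By textbook location 47 act in the cytosol or nucleus, 12 in the ER and 9 in mitochondria, and 4 were not assigned.

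The RNA came from sorted LSK cells of mouse bone marrow (C57BL/6), which are lineage-negative, Sca-1 positive and c-Kit positive and hold the blood stem cells and early progenitors. The 3 AML1/ETO libraries came from mice with the genotype Runx1-Runx1t1, a fusion gene of acute myeloid leukaemia, and the 5 control libraries from wild-type mice. Mice of both groups, controls included, received poly(I:C), which mimics viral RNA and raises interferon, 4 times on alternate days at 5 mg/kg, and cells were sorted 4 weeks after that. The sources used here do not state age, sex, animals per library or how the fusion allele was switched on, so the p-values below speak only of how these libraries vary, which may be technical.

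Libraries held 14693080 to 17527043 counted reads. Zeros were frequent where the rest of the group predicted 20 to 50 reads: 41.4% to 51.1% of such genes in an AML1/ETO library, 46.2% in control 1 and 10.5% to 27.0% in controls 2 to 5. Each prediction used the other libraries of the group, of which the AML1/ETO group (n = 3) had fewer than the controls (n = 5). These shares of zeros are therefore not like for like between the groups. The groups differed in sex-linked transcripts. Xist, expressed in females, had 28559 to 33151 reads against 0 to 111. Ddx3y, of the Y chromosome, had 0 reads in each AML1/ETO library against 3688 to 5038. By these transcripts the AML1/ETO libraries were female and the controls male, so genotype and sex cannot be told apart. Of the stem and progenitor markers 10 of 12 rose and 1 fell, with Kit at 913 to 1697 CPM (reads relative to the TMM-adjusted library size) against 378 to 469 CPM. Ly6a, the gene of Sca-1, stood at only 8.26 to 23.4 CPM in the controls, against 221 to 921 CPM. Mast cell and basophil markers summed to 2534 to 6904 CPM in the AML1/ETO libraries and 41.9 to 108 CPM in the controls, where 4 of 12 (Cma1, Tpsab1, Tpsb2 and Mcpt4) had no read. Tpsab1, Tpsb2 and Mcpt4 also reached 0 CPM within the AML1/ETO group. Cpa3 alone was at 1771 to 6135 CPM there. Of 9 tested markers 6 rose and 1 fell, Prss34, at 0 CPM in the AML1/ETO libraries against 2.69 to 8.48 CPM. Macrophage and neutrophil markers summed to 211 to 1102 CPM against 1288 to 3198 CPM, and 7 of 12 fell and none rose. Mpo held most of that sum, at 172 to 986 CPM against 883 to 2268 CPM. Its groups overlapped and it was not called (edgeR, adjusted p = 0.0721). Lineage markers summed to 0.589 to 9.77 CPM against 0.408 to 47.4 CPM, with 6 of 11 at 0 in all AML1/ETO libraries and 4 in all controls. In bulk counts, fewer cells of a type and less RNA per cell cannot be told apart, and the part of these markers in the results below was not tested.

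Of the 72 genes, 61 passed the filter on low counts and were tested. In AML1/ETO cells 6 rose and 12 fell (edgeR's quasi-likelihood F-test; p adjusted by Benjamini and Hochberg over all 15009 tested genes, threshold 0.05), that is 9.84% and 19.7%. Among all tested genes 11.6% rose and 14.2% fell. The median log2 change was -0.12 for the 61 and -0.09 for all tested genes. The 6 that rose were Hspa8, Dnajb1, Dnajb4, Dnajb9, Dnajb13 and Hspa12b, and the 12 that fell were Hsp90aa1, Hspa4l, Dnaja2, Dnajc2, Dnajc8, Dnajc9, Hsp90b1, Hspa13, Dnajb11, Dnajc3, Hspa9 and Hspd1. Every AML1/ETO library was above every control for 6 genes, the same 6 that rose, and below every control for 13, against 14.1% and 17.5% of all tested genes. Those 13 were the genes that fell other than Hspa13, plus Hsp90ab1 and Hspe1. With libraries scaled by their totals alone, 4 rose and 17 fell, and over all genes the share of rises among calls went from 44.9% to 34.2%. Among members with a mean of at least 20 CPM, 4 of 40 rose and 12 fell (30%), against 18.6% higher and 20.3% lower of the 7576 genes at that level.

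The counts by compartment are to be read beside 11.6% higher and 14.2% lower of all tested genes. For genes with a mean of at least 20 CPM the shares were 18.6% and 20.3%. All ER genes but Dnajc25 were at that level. Of 37 tested cytosolic and nuclear genes 5 rose (13.5%) and 6 fell (16.2%), with a median log2 change of 0.01. In the ER group 1 of 12 rose (8.33%) and 4 fell (33.3%), with a median of -0.46. Of 9 mitochondrial genes none rose and 2 fell (22.2%), with a median of -0.93. With only 9 genes, the absence of a rise is close to the share of all genes. No mitochondrial gene rose at an unadjusted p under 0.05 in edgeR, and none was called higher after adjustment by DESeq2 or limma-voom. Summed over the mitochondrial genes, the level was 529.5, 619 and 565 CPM in AML1/ETO libraries 1 to 3 and 777, 961, 1137, 899.8 and 958 CPM in controls 1 to 5, so that every AML1/ETO library lay below every control. The summed ER level was 3347, 2189.6 and 2629 CPM against 2825, 3452, 3731, 2762 and 3357 CPM. For the cytosol and nucleus it was 8294, 8563 and 8439.8 CPM against 8184, 9278, 9601, 8535 and 8945 CPM. Both of these sums overlapped between the groups. Hspa9 (mean 260 against 446 CPM), Hspd1 (137 against 267 CPM) and Hspe1 (51.7 against 87.1 CPM) hold most of the mitochondrial sum. Hspa5 (1958 against 2126 CPM) holds most of the ER sum. A log2 change below 0 was found for 10 of 12 ER genes and 7 of 9 mitochondrial genes. The compartments were not tested against each other.

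**Figure D1:**
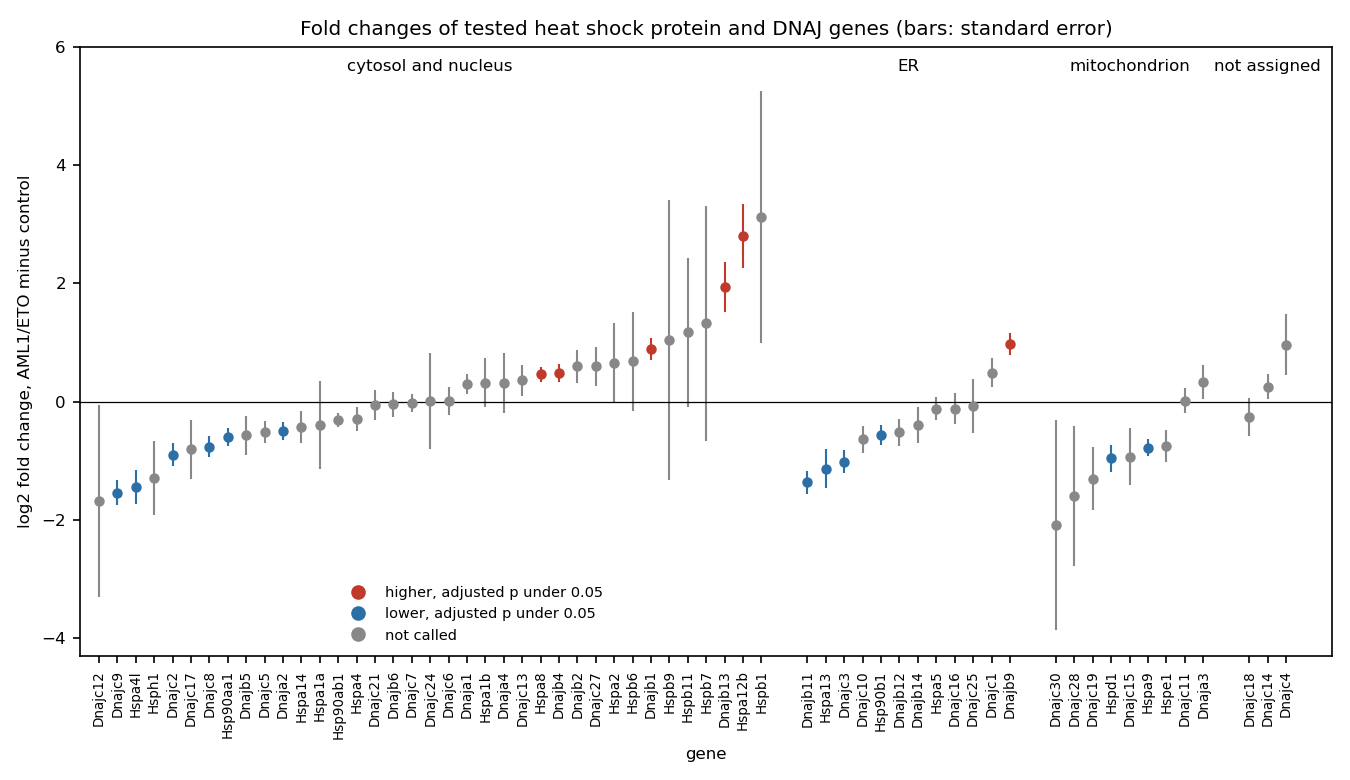
The log2 change (AML1/ETO minus control) of each of the 61 tested genes is plotted by compartment, with bars for the standard error, in red for the 6 genes that rose, blue for the 12 that fell and grey for the rest. Calls of both directions lie in the cytosol and the ER. The 2 calls among the 9 tested mitochondrial genes are both lower, and genes with wide bars have few reads.

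**Figure D2:**
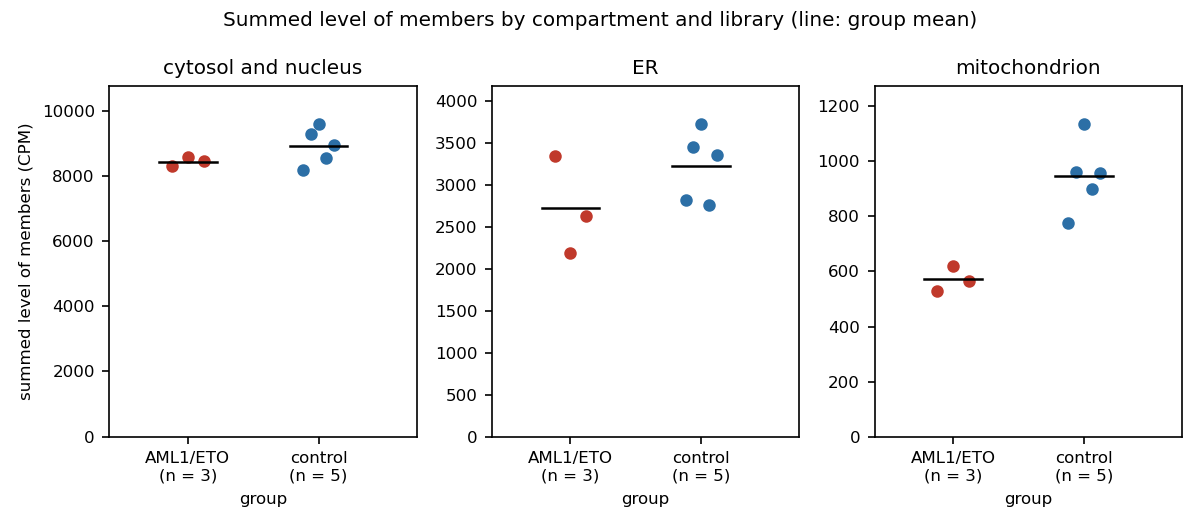
The summed level of all members (CPM, axes from 0) is plotted for each library by compartment, with a line at the group mean. The mitochondrial sum separates the groups, at 529.5 to 619 CPM against 777 to 1137 CPM, while the cytosolic and ER sums overlap. Hspa9, Hspd1 and Hspe1 hold most of the mitochondrial sum, and Hspa5 most of the ER sum.

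Per length of exon (RPKM, the CPM divided by kilobases of GENCODE M21 exon), the most abundant in the controls was Hsp90ab1, the constitutive cytosolic HSP90, at 1052 ± 60.0 RPKM (SD, n = 5). The ER HSP70 gene Hspa5 (503 ± 80.6) and the constitutive cytosolic HSP70 gene Hspa8 (441 ± 41.2) came next. Hspa5 was above Hspa8 in each control, most narrowly in control 4 (1718 against 1706 CPM), and the difference was not tested. Below both stood the inducible HSP90 gene Hsp90aa1 (219.5 ± 29.6) and the exchange factor gene Hspa4 (126 ± 19.6). In the AML1/ETO libraries the order of the first 3 means was Hsp90ab1 (851 ± 78.6, n = 3), Hspa8 (607 ± 44.1) and Hspa5 (463 ± 128). In AML1/ETO library 1, however, Hspa5 (2524 CPM, 4229 exon bases) was above Hspa8 (2390 CPM, 4301 exon bases). The heat-inducible HSP70 genes Hspa1a and Hspa1b were low in both groups, at 4.52 and 6.00 RPKM in the controls.

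Among the cytosolic HSP70 genes, Hspa8 (ENSMUSG00000015656, chromosome 9, 40800984 to 40810087 in mm10) encodes HSC70, which serves unstressed cells. It stood at 2389.8, 2714 and 2724 CPM in AML1/ETO libraries 1 to 3 and at 1708, 1972, 2091, 1706 and 1998 CPM in controls 1 to 5. All 3 AML1/ETO libraries were above all controls, a 1.38-fold rise (log2 change 0.46 ± 0.12 SE, adjusted p = 0.0164). The rise did not pass with library totals alone (0.32, adjusted p = 0.0815) or when AML1/ETO library 2 or 3 was left out (at 0.0559 and 0.0590). The snoRNA genes Snord14c, Snord14d and Snord14e lie within its exons on the same strand, and reads shared with them could have been split or dropped in counting.

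Hspa1a and Hspa1b (chromosome 17) are near-identical intronless copies, so their reads could be split between them or lost in counting. Hspa1a was at 1.51, 14.9 and 14.3 CPM in AML1/ETO libraries 1 to 3 and at 13.5, 3.23, 10.7, 12.1 and 27.7 CPM in controls 1 to 5. Hspa1b was at 13.6, 35.5 and 13.8 CPM in AML1/ETO libraries 1 to 3 and at 12.5, 11.3, 22.2, 15.4 and 22.8 CPM in controls 1 to 5. Groups overlapped for both, and neither passed (-0.39, adjusted p = 0.772, and 0.32, adjusted p = 0.647). With the reads of both summed the log2 change was 0.05 (adjusted p = 0.962). The third gene of the cluster, Hspa1l, a testis-type HSP70, had 80 reads in AML1/ETO library 3, 10 and 11 in controls 2 and 3 and none elsewhere, and was not tested.

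Hspa12b, a distant HSP70 relative known from endothelial cells, was at 18.0, 27.9 and 16.5 CPM in AML1/ETO libraries 1 to 3 and at 1.17, 4.16, 2.03, 4.95 and 2.58 CPM in controls 1 to 5. It was low in the controls and higher in each AML1/ETO library, 6.97-fold (log2 change 2.80 ± 0.54 SE, adjusted p = 0.00261). Hspa2, the HSP70 of spermatogenesis, ranged from 3.40 to 25.8 CPM against 3.75 to 14.9 CPM and overlapped (0.65, adjusted p = 0.552). Hspa14, which forms the ribosome-associated complex with Dnajc2, did not pass (-0.43, adjusted p = 0.273), and passed as lower without AML1/ETO library 1 (-0.84, adjusted p = 0.0210). Its exons overlap those of Gm45902 on the same strand, so these reads could have been split. Hspa12a had 10 reads in control 2 alone.

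The HSP110 genes Hspa4, Hspa4l and Hsph1 encode exchange factors that release HSP70 from its client. Hspa4l was at 48.3, 27.7 and 27.7 CPM in AML1/ETO libraries 1 to 3 and at 127, 100.3, 56.1, 89.4 and 97.7 CPM in controls 1 to 5. All AML1/ETO libraries lay below all controls, a 2.72-fold fall (log2 change -1.44 ± 0.29 SE, adjusted p = 0.00351). Hsph1, the most heat-inducible of the 3, was at 1.97, 35.7 and 14.3 CPM in AML1/ETO libraries 1 to 3 and at 33.0, 34.8, 43.9, 43.7 and 58.1 CPM in controls 1 to 5. Here AML1/ETO library 2 lay within the control range and the others below it (-1.30, adjusted p = 0.150), and without that library Hsph1 passed as lower (-2.39, adjusted p = 0.0151). Hspa4 was at 771, 519 and 419 CPM in AML1/ETO libraries 1 to 3 and at 568, 834, 711, 758 and 611 CPM in controls 1 to 5. Library 1 alone of the AML1/ETO group was in the upper part of the control range (-0.29, adjusted p = 0.341), and without it Hspa4 passed as lower (-0.58, adjusted p = 0.0313). Hspa4 also passed as lower by limma-voom with all libraries (-0.52, adjusted p = 0.0437).

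HSP90 takes over clients such as kinases and steroid receptors from HSP70. Hsp90aa1 (ENSMUSG00000021270, chromosome 12, 110690605 to 110702728 in mm10), the inducible form, was at 500.5, 647 and 563 CPM in AML1/ETO libraries 1 to 3 and at 725, 902, 1006, 764 and 919 CPM in controls 1 to 5. Its AML1/ETO libraries lay below all controls, a 1.51-fold fall (log2 change -0.60 ± 0.15 SE, adjusted p = 0.0141). Hsp90ab1 (ENSMUSG00000023944, chromosome 17, 45567775 to 45573271 in mm10) was at 2305, 2573 and 2774 CPM in AML1/ETO libraries 1 to 3 and at 2971, 3263, 3408, 3023 and 3105 CPM in controls 1 to 5. Every AML1/ETO library was again below every control, but the gene did not pass (log2 change -0.31 ± 0.12 SE, adjusted p = 0.0747) other than with library totals alone (-0.45, adjusted p = 0.0147). Within a library, a ratio of 2 genes does not depend on the scaling. Hspa8 gave 104, 105 and 98.2 reads for every 100 of Hsp90ab1 in the AML1/ETO group and 57.5, 60.4, 61.4, 56.4 and 64.3 in the controls. These ratios did not overlap, and the mean log2 ratio differed by 0.77. The exact two-sided permutation test gave p = 0.03571, the smallest that 3 against 5 libraries allow. Adjusted over the 13 partner pairs computed it was 0.0663, and none of the 13 passed after adjustment. Since p could not go lower, no ratio could pass on its own, however wide its gap. The failure to pass therefore says nothing about a single ratio. Hsp90aa1 had 20.3 to 25.1 reads per 100 of Hsp90ab1 against 24.4 to 29.6, which overlapped.

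**Figure D3:**
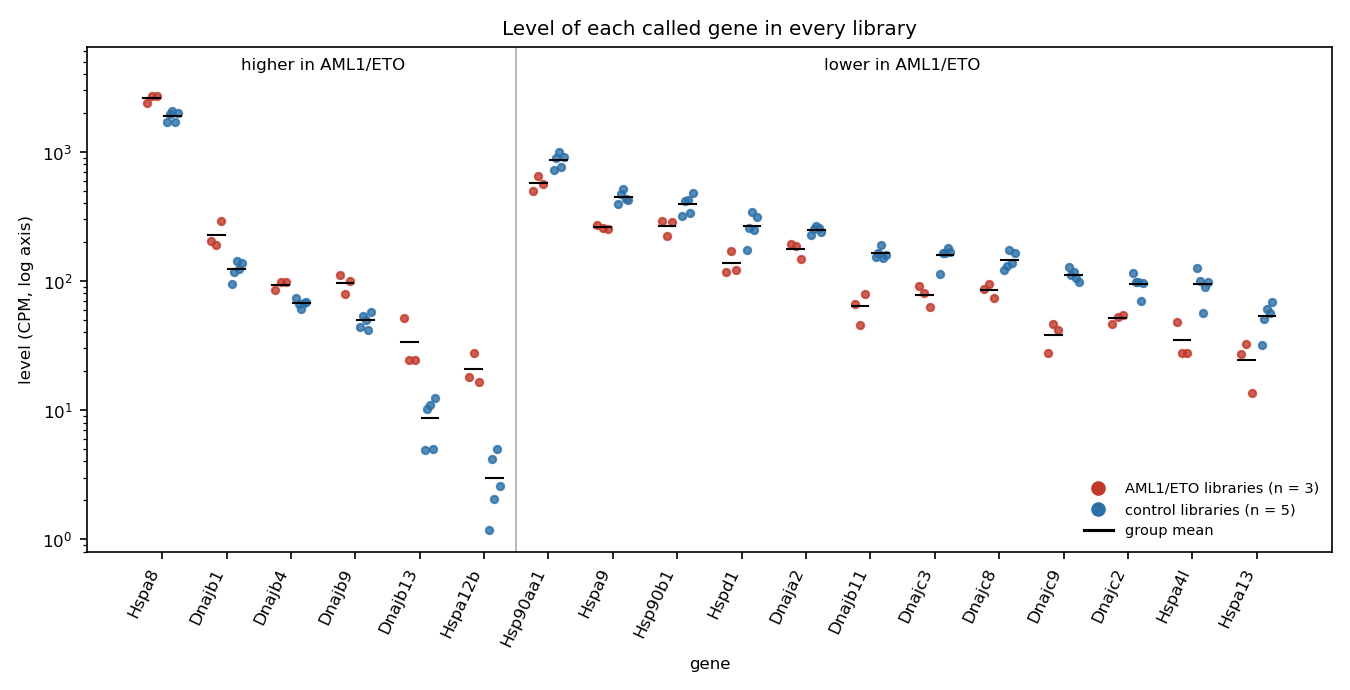
The level of each of the 18 called genes (CPM, log axis) is plotted for every library, AML1/ETO in red and controls in blue, with a line at the group mean. The 6 genes on the left rose and the 12 on the right fell, and Hspa13 is the gene whose groups overlap, since AML1/ETO library 2 (32.5 CPM) is above control 1 (31.9 CPM).

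Of 10 tested DNAJB genes 4 rose and 1 fell, of 4 DNAJA genes 1 fell, and of 25 tested DNAJC genes none rose and 4 fell, beside 11.6% higher and 14.2% lower of all tested genes. The 4 falls among DNAJC genes (16%) are near that share. Of genes with a mean of at least 20 CPM, 18.6% were higher and 20.3% lower. In the DNAJC genes no rise was called by DESeq2 or limma-voom either, and none was higher at an unadjusted p under 0.05 in edgeR. Dnajb1 (ENSMUSG00000005483, chromosome 8, 83608193 to 83612653 in mm10), the main stress-inducible partner of cytosolic HSP70, was at 204, 191 and 291 CPM in AML1/ETO libraries 1 to 3 and at 94.3, 117, 143, 125 and 137 CPM in controls 1 to 5. It was higher in each AML1/ETO library, 1.86-fold (log2 change 0.89 ± 0.19 SE, adjusted p = 0.00455). Dnajb4, its close relative, was at 85.0, 97.7 and 99.0 CPM in AML1/ETO libraries 1 to 3 and at 73.6, 66.0, 60.3, 67.3 and 68.2 CPM in controls 1 to 5. The groups separated by a small step, 1.40-fold (log2 change 0.48 ± 0.16 SE, adjusted p = 0.0405). The call was lost with library totals alone (adjusted p = 0.147), without a filter (0.0630), and on leaving out AML1/ETO library 2 or 3 or control 2, 3, 4 or 5 (adjusted p = 0.0512 to 0.124).

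Dnajb13, a J protein of the sperm and cilium axoneme, was at 51.6, 24.5 and 24.4 CPM in AML1/ETO libraries 1 to 3 and at 4.91, 10.2, 10.9, 5.01 and 12.5 CPM in controls 1 to 5. Both groups were separate, with AML1/ETO library 1 the highest, and the rise was 3.85-fold (log2 change 1.94 ± 0.42 SE, adjusted p = 0.00545). Its exons overlap those of Ucp2, a mitochondrial carrier, on the opposite strand. Ucp2 itself rose (log2 change 1.77, adjusted p = 9.07e-06), from a mean of 498 CPM to 1693 CPM. No source used here states the strand setting of the counting, so reads of Ucp2 and Dnajb13 cannot be told apart in the overlap. The other genes of testis type, Dnajb3, Dnajb7 and Dnajb8, were at 0 reads in the AML1/ETO group and 0 to 65 reads in the controls.

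Dnaja1 and Dnaja2 are the general J proteins that pass clients to HSC70. Dnaja2 was at 192, 188 and 147 CPM in AML1/ETO libraries 1 to 3 and at 228, 251, 266, 258 and 238 CPM in controls 1 to 5. Its AML1/ETO libraries lay below all controls, a 1.41-fold fall (log2 change -0.50 ± 0.15 SE, adjusted p = 0.0265). The call was lost without a filter (adjusted p = 0.0646) and on leaving out AML1/ETO library 3 or control 2, 3, 4 or 5 (adjusted p = 0.0565 to 0.107). Dnaja1 was at 304 to 361 CPM against 216 to 339 CPM, overlapping, and did not pass (0.30, adjusted p = 0.221). Its exons overlap those of Smu1 on the other strand. Per 100 reads of their partner Hspa8, Dnaja2 gave 5.39 to 8.02 in the AML1/ETO group against 11.9 to 15.1 in the controls, with no overlap. Dnaja1 had 11.2 to 13.7 against 12.3 to 16.2, Dnajb1 7.06 to 10.7 against 5.52 to 7.30 and Hspa4 15.4 to 32.3 against 30.6 to 44.4, all overlapping.

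The cytosolic and nuclear DNAJC genes that fell were Dnajc9, Dnajc8 and Dnajc2. Dnajc9 (ENSMUSG00000021811, chromosome 14, 20384638 to 20388910 in mm10), which brings HSP70 to histones H3 and H4, was at 27.6, 46.2 and 41.4 CPM in AML1/ETO libraries 1 to 3 and at 129, 111, 116, 105 and 97.3 CPM in controls 1 to 5. Every AML1/ETO library lay far below the lowest control, and the gene fell 2.91-fold (log2 change -1.54 ± 0.21 SE, adjusted p = 0.000290). Dnajc8, a J protein of the splicing machinery, was at 86.5, 95.5 and 74.3 CPM in AML1/ETO libraries 1 to 3 and at 122, 130.1, 173, 137 and 163 CPM in controls 1 to 5. It fell 1.70-fold (log2 change -0.76 ± 0.18 SE, adjusted p = 0.00799) with no overlap. Dnajc2, which sits on the ribosome near the nascent chain, was at 46.3, 52.7 and 54.6 CPM in AML1/ETO libraries 1 to 3 and at 115, 97.8, 98.5, 70.3 and 95.6 CPM in controls 1 to 5. The highest AML1/ETO library stayed below the lowest control, at 1.86-fold lower (log2 change -0.90 ± 0.19 SE, adjusted p = 0.00522).

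The vesicle and clathrin group overlapped between the groups: Dnajc5 (cysteine string protein; -0.51, adjusted p = 0.0658), Dnajc6 (auxilin; 0.01, adjusted p = 0.979) and Dnajc13 (an endosomal J protein; 0.36, adjusted p = 0.352). Of these Dnajc5 passed as lower without AML1/ETO library 1 (-0.78, adjusted p = 0.00306), which was at 253 CPM beside 170.2 and 146 CPM in the others. With all libraries Dnajc5 passed by limma-voom (-0.63, adjusted p = 0.0136) and with library totals alone (-0.67, adjusted p = 0.0165). Dnajc7, which links HSP70 with HSP90, was at 126 ± 19.1 CPM (SD, n = 3) against 129 ± 9.74 CPM (SD, n = 5). Dnajb6, which holds back aggregation, was at 225 ± 78.2 CPM (SD, n = 3) against 232 ± 32.2 CPM (SD, n = 5). Dnajc21, a ribosome assembly factor, was at 42.7 ± 7.23 CPM (SD, n = 3) against 44.5 ± 11.2 CPM (SD, n = 5). These 3 pairs of means differed by less than their spread. A further 6 tested cytosolic DNAJ genes, Dnaja4, Dnajb2, Dnajb5, Dnajc17, Dnajc24 and Dnajc27, had log2 changes from -0.81 to 0.60 and did not pass. Dnajc12 was at 0, 3.75 and 0 CPM against 2.07 to 7.25 CPM and passed as lower only without AML1/ETO library 2 (adjusted p = 0.00880), with 0 reads in both that were left.

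Small heat shock proteins hold unfolded proteins without ATP. All 5 tested HSPB genes had a log2 change above 0 and none passed, whereas Hspb2 and Hspb3 had no read in any library and Hspb8 35 reads in control 4 alone. Hspb1, the HSP27 gene, was at 3.41, 2.25 and 0 CPM in the AML1/ETO libraries and 0, 0.411, 0, 0.640 and 0 CPM in the controls (3.12, adjusted p = 0.325). Hspb11, the intraflagellar transport factor IFT25, was at 0, 10.1 and 6.34 CPM against 0.990 to 4.28 CPM. Hspb6, Hspb7 and Hspb9 stayed at or under 7.65 CPM in every library. The signs of this group rest on few reads, and those of Hspb7 and Hspb9 turned negative under some alternatives (down to -2.39 and -5.87).

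In the ER, Hspa5 (BiP) is the HSP70 of the lumen and the main target of the unfolded protein response, and its J proteins Dnajb9, Dnajb11, Dnajc3 and Dnajc10 are induced with it. Promoter windows (RefSeq, GRCm38.p6, 250 bases before to 50 after the start site) were found for 58 of the 72 genes, 75 windows in all. The ER stress element (CCAAT and, after 9 bases of any kind, CCACG), searched on both strands, was in 39 of 32851 windows of all genes (0.119%) and in those of 3 members, Hspa5, Hsp90b1 and Dnajc3. These 3 windows are printed because 2 of the genes fell and the third did not pass. Each runs 5′ to 3′ on the gene's strand, with matches in capitals.
Hspa5 (chr2:34771840-34772139, plus strand): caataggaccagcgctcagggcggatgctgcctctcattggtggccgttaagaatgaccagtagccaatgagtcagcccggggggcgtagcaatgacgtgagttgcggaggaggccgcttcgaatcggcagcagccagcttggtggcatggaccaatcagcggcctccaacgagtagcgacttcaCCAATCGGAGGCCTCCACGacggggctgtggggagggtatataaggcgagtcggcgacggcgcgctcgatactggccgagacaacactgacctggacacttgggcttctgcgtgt
Hsp90b1 (chr10:86705395-86705694, minus strand): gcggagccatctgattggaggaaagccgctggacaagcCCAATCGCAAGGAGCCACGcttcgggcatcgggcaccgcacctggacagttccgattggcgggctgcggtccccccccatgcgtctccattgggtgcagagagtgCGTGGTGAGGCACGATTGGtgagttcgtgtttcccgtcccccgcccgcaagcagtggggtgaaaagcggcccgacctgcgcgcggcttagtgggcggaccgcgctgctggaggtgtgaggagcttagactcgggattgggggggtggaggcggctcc
Dnajc3 (chr14:118937682-118937981, plus strand): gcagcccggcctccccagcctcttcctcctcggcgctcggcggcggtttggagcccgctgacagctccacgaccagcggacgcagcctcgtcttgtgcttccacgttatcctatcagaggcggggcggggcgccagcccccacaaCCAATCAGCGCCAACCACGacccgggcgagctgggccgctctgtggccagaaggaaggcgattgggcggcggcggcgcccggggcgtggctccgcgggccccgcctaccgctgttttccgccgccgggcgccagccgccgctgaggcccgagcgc
The match in the Hspa5 window begins 65 bases before the start site and that of Dnajc3 105 bases before it. Hsp90b1 has 2, at 212 and 107 bases, the nearer on the other strand. A match is a description of the sequence, not evidence of binding.

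Hspa5 (ENSMUSG00000026864, chromosome 2, 34771970 to 34777547 in mm10) was at 2524, 1449 and 1902 CPM in AML1/ETO libraries 1 to 3 and at 1879, 2309.8, 2576, 1718 and 2147 CPM in controls 1 to 5. AML1/ETO library 1 was near the top of the control range and library 2 below it, and the gene did not pass (log2 change -0.12 ± 0.19 SE, adjusted p = 0.721). Hsp90b1, the ER HSP90 GRP94, was at 293, 225 and 286 CPM in AML1/ETO libraries 1 to 3 and at 321, 416, 427, 336 and 478 CPM in controls 1 to 5. The groups did not overlap, but the step was small, 1.48-fold (log2 change -0.56 ± 0.17 SE, adjusted p = 0.0325). The call was lost with DESeq2's size factors (adjusted p = 0.0567), without a filter (0.0527), and on leaving out AML1/ETO library 2 or 3 or control 2, 3 or 5 (adjusted p = 0.0549 to 0.110). The gene shares exon bases with Gm15344 and a miRNA on the same strand and a pseudogene on the other. Dnajc3, a lumenal J protein that binds misfolded proteins, was at 91.1, 80.9 and 63.0 CPM in AML1/ETO libraries 1 to 3 and at 114, 164, 164, 181 and 168 CPM in controls 1 to 5. Control 1 was the lowest of its group and still above all AML1/ETO libraries, and the fall was 2.02-fold (log2 change -1.01 ± 0.20 SE, adjusted p = 0.00284).

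Dnajb11 (ENSMUSG00000004460, chromosome 16, 22857845 to 22879634 in mm10), the abundant soluble ER J protein ERdj3, had the largest fall of the 12 ER genes. It was at 65.8, 45.4 and 79.1 CPM in AML1/ETO libraries 1 to 3 and at 154, 164, 190.2, 151 and 158 CPM in controls 1 to 5. Every AML1/ETO library lay far below the lowest control, a 2.58-fold fall (log2 change -1.37 ± 0.20 SE, adjusted p = 0.000457). Dnajb9, or ERdj4, which holds the stress sensor IRE1 inactive through BiP, went the other way at 110.5, 79.6 and 101 CPM in AML1/ETO libraries 1 to 3 and at 43.9, 54.0, 50.2, 42.0 and 58.0 CPM in controls 1 to 5. It was higher in each AML1/ETO library, 1.95-fold (log2 change 0.97 ± 0.19 SE, adjusted p = 0.00271). Hspa13, an HSP70-like ATPase of microsomes, was at 27.1, 32.5 and 13.6 CPM in AML1/ETO libraries 1 to 3 and at 31.9, 51.1, 60.9, 56.6 and 68.2 CPM in controls 1 to 5. It fell 2.20-fold with overlap between AML1/ETO library 2 and control 1 (log2 change -1.14 ± 0.33 SE, adjusted p = 0.0242). The call was lost on leaving out AML1/ETO library 3 or control 2, 3, 4 or 5 (adjusted p = 0.0516 to 0.0725).

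Dnajc10, or ERdj5, a disulfide reductase, was at 36.4 to 61.0 CPM against 56.0 to 87.5 CPM and did not pass (-0.64, adjusted p = 0.0598). It passed as lower once AML1/ETO library 2 was dropped (-0.90, adjusted p = 0.0168) or control 1 (-0.68, adjusted p = 0.0480). With library totals alone it passed too (-0.78, adjusted p = 0.0305). The membrane-bound Dnajb12 (-0.52, adjusted p = 0.116) and Dnajb14 (-0.39, adjusted p = 0.390), which act in disposal of ER proteins, did not pass. Dnajb12 did without AML1/ETO library 1 (-0.74, adjusted p = 0.0365), by limma-voom (-0.69, adjusted p = 0.0432) and with library totals alone (-0.67, adjusted p = 0.0445). Dnajc1, the membrane J protein at the ribosome exit, had a log2 change of 0.49 and passed as higher without control 1 (0.69, adjusted p = 0.0401). Dnajc16 and Dnajc25 were at -0.12 and -0.07.

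Ratios to Hspa5 were also taken within each library. Per 100 reads of Hspa5, Dnajb11 had 2.61, 3.13 and 4.16 reads in AML1/ETO libraries 1 to 3 and 8.20, 7.11, 7.38, 8.82 and 7.34 in controls 1 to 5. Dnajb9 had 4.38, 5.49 and 5.30 against 2.34, 2.34, 1.95, 2.45 and 2.70. Neither ratio overlapped, and they moved in opposite directions. Dnajc3 had 3.31 to 5.58 reads per 100 of Hspa5 against 6.06 to 10.6, and Hsp90b1 11.6 to 15.5 against 16.6 to 22.3. Both were below all controls. Each of these 4 ratios reached the smallest permutation p, 0.03571 (exact, two-sided), and did not pass after adjustment over the 13 pairs (0.0663). As above, no ratio could have passed on its own, so the adjusted value does not weigh them. Dnajc10 overlapped at 1.60 to 4.21 against 2.86 to 4.30.

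**Figure D4:**
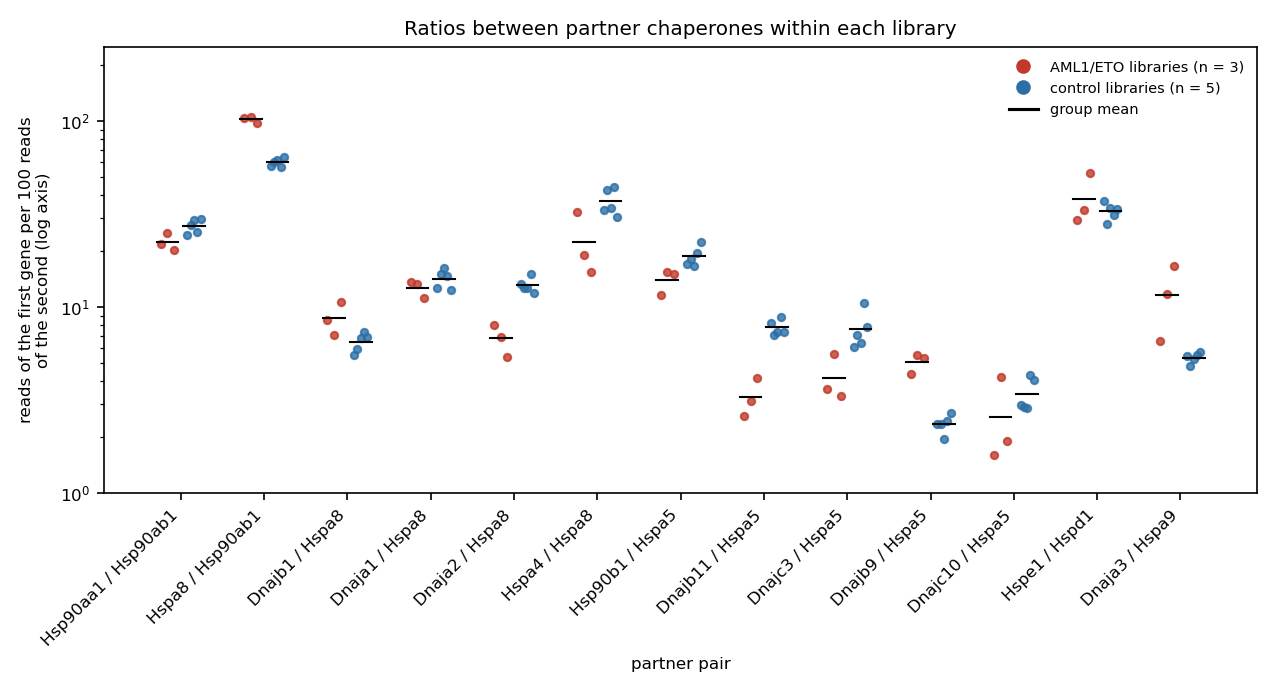
For 13 pairs of partner chaperones, the reads of the first gene per 100 reads of the second (log axis) are plotted in each library, AML1/ETO in red and controls in blue, with a line at the group mean. Points separate for Hspa8 against Hsp90ab1, Dnaja2 against Hspa8, Hsp90b1, Dnajb11, Dnajc3 and Dnajb9 against Hspa5, and Dnaja3 against Hspa9, and overlap for the other 6 pairs.

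In mitochondria, Hspa9 (mortalin) pulls proteins into the matrix and folds them, and the ring of Hspd1 (HSP60) closed by Hspe1 (HSP10) finishes folding. Hspd1 and Hspe1 lie head to head on chromosome 1 and their start regions overlap on opposite strands: a promoter window of Hspd1 shares 285 of its 300 bases with that of Hspe1. The heat shock element (GAA, TTC and GAA with 2 bases of any kind between each and the next), searched on both strands, was in 198 of 32851 windows (0.603%) and in 6 of 75 windows of the members (8%), those of Hspd1, Hspe1, Hsph1 and Dnajb6. Windows that overlap share these sites. Both Dnajb6 windows hold the same match, as do both Hsph1 windows, and the matches of Hspd1 and Hspe1 are the same bases. The 8% thus counts sites more than once. The Hspe1 window is printed because it serves the pair. The capitals mark 2 overlapping matches that begin 89 and 84 bases before the Hspe1 start site.
Hspe1 (chr1:55087898-55088197, plus strand): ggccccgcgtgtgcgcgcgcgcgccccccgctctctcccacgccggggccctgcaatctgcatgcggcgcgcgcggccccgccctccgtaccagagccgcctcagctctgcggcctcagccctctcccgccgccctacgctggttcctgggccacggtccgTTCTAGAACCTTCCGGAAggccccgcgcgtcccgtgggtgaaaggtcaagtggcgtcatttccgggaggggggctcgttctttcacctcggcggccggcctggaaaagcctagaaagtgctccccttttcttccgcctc
A window was found for 5 of the 6 genes that rose, and none of these held the heat shock element. It was in 1 of 8 genes with a window that fell and in 3 of 37 not called. With so few genes these counts do not set the groups apart. The RUNX core TGTGGT, also on both strands, was in the windows of 5 members (Dnajb5, Dnajb8, Dnajb13, Dnajc6 and Hspa12a). That was 8% of the 75 windows against 16.8% of all. A window without a match says only that these letters are not there.

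Hspd1 (ENSMUSG00000025980, chromosome 1, 55077835 to 55088243 in mm10) was at 117, 172 and 122 CPM in AML1/ETO libraries 1 to 3 and at 173, 259, 342, 246 and 312 CPM in controls 1 to 5. All AML1/ETO libraries were below all controls, though library 2 lay close to control 1, and the gene fell 1.95-fold (log2 change -0.96 ± 0.23 SE, adjusted p = 0.00960). Hspe1 (ENSMUSG00000073676, chromosome 1, 55088132 to 55091307 in mm10) was at 34.1, 57.0 and 63.9 CPM in AML1/ETO libraries 1 to 3 and at 64.7, 72.7, 117, 76.4 and 105 CPM in controls 1 to 5. The groups again did not overlap but came close, and the gene did not pass (log2 change -0.75 ± 0.27 SE, adjusted p = 0.0570). It fell past the threshold when AML1/ETO library 3 was left out (-0.94, adjusted p = 0.0480) or control 1 was (-0.81, adjusted p = 0.0496). The same held with library totals alone (-0.89, adjusted p = 0.0309). Hspe1 had 29.2, 33.2 and 52.4 reads per 100 of Hspd1 against 37.4, 28.1, 34.1, 31.0 and 33.5, overlapping (exact permutation p = 0.5357). Reads in the exon overlap of the pair cannot be told apart without strand.

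Hspa9 (ENSMUSG00000024359) was at 272, 258 and 252 CPM in AML1/ETO libraries 1 to 3 and at 396, 469, 512, 433 and 423 CPM in controls 1 to 5. The 3 AML1/ETO values lay close together and under all controls, 1.71-fold lower (log2 change -0.78 ± 0.14 SE, adjusted p = 0.00167), and all 16 alternatives kept the call. Dnaja3, its J protein TID1, was at 17.7, 30.2 and 42.0 CPM in AML1/ETO libraries 1 to 3 and at 21.5, 22.5, 27.0, 23.9 and 24.2 CPM in controls 1 to 5. The AML1/ETO libraries lay on both sides of the control range (0.33, adjusted p = 0.467). Per 100 reads of Hspa9, Dnaja3 had 6.53, 11.7 and 16.7 reads against 4.79 to 5.71, higher in each AML1/ETO library.

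Dnajc19 and Dnajc15, J proteins of the import motor at the inner membrane, did not pass (-1.31, adjusted p = 0.0920, and -0.93, adjusted p = 0.179). Dnajc19 was at 5.45, 9.81 and 4.45 CPM against 5.85, 18.1, 25.7, 17.6 and 14.0 CPM, with control 1 as low as the AML1/ETO libraries, and passed as lower without control 1 (-1.49, adjusted p = 0.0299). Dnajc15 was at 8.03, 4.31 and 22.5 CPM against 17.8 to 25.2 CPM and passed without AML1/ETO library 3 (-1.86, adjusted p = 0.00957). Dnajc28 (1.74, 4.31 and 0 CPM) and Dnajc30 (0, 5.94 and 0 CPM) were low and held zeros, and Dnajc30 passed as lower without AML1/ETO library 2 (adjusted p = 0.0227), with 0 reads in both that were left. Dnajc11, a partner of the cristae complex, was alike in mean, 70.0 ± 10.2 CPM (SD, n = 3) against 69.4 ± 14.4 CPM (SD, n = 5), with a log2 change of 0.01 ± 0.21 (SE).

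The 4 unassigned genes showed no call: Dnajc4, Dnajc14 and Dnajc18 had log2 changes of 0.96, 0.25 and -0.26, and Dnajc22 had no read. In all, 11 of the 72 were not tested, 5 of them at 0 reads in every library (Dnajc5b, Dnajc5g, Dnajc22, Hspb2 and Hspb3). A count of 0 allows up to 3 reads per library, 0.165 to 0.227 CPM, from counting error alone. Exon bases shared with another gene were found for 28 of the 72, and reads there are uncertain.

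Genes outside the family that work with it were also counted from lists, to be read beside 11.6% higher and 14.2% lower of all tested genes, or 18.6% and 20.3% of genes with a mean of at least 20 CPM. The heat shock factor list held 4 tested genes, the factors Hsf1, Hsf2 and Hsf4 and the factor-binding Hsbp1. None passed in edgeR and none was at an unadjusted p under 0.05. Hsf1, the master regulator, was at 82.4 ± 30.0 against 81.6 ± 6.47 CPM (log2 change 0.01, adjusted p = 0.978). Hsbp1 was at 30.8 to 50.8 CPM against 56.0 to 62.2 CPM, without overlap (log2 change -0.41, adjusted p = 0.172). Of the cytosolic ring chaperone CCT and its partner prefoldin 7 of 14 fell (50%), median log2 change -0.52, among them Tcp1 at 151 ± 23.3 against 286 ± 27.7 CPM (log2 change -0.92, adjusted p = 0.00127), Cct6a at 145 ± 27.9 against 244 ± 26.4 CPM (log2 change -0.75, adjusted p = 0.00718) and Cct2 at 379 ± 14.6 against 530.4 ± 29.3 CPM (log2 change -0.49, adjusted p = 0.0138). All 7 were CCT subunits, which fold actin and tubulin. Of 13 exchange factor and HSP70 ligase genes 5 fell (38.5%), median -0.45. They include Grpel1, the exchange factor of Hspa9, at 20.7 ± 4.76 against 62.8 ± 7.26 CPM (log2 change -1.60, adjusted p = 0.000380), and the cytosolic exchange factors Bag1 at 76.0 ± 12.8 against 138 ± 12.2 CPM (log2 change -0.86, adjusted p = 0.00308) and Hspbp1 at 19.2 ± 10.9 against 58.3 ± 10.7 CPM (log2 change -1.60, adjusted p = 0.00649).

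HSP90 co-chaperones were mixed: 3 of 17 rose (17.6%) and 2 fell (11.8%), shares near those of all genes, median -0.18. Fkbp5, an immunophilin and a glucocorticoid target, was at 264 ± 87.3 against 74.3 ± 16.2 CPM (log2 change 1.83, adjusted p = 0.000250), Ahsa2, an activator of the HSP90 ATPase, at 53.4 ± 18.7 against 26.6 ± 3.86 CPM (log2 change 1.01, adjusted p = 0.0139) and Sugt1 at 34.4 ± 7.61 against 59.9 ± 4.99 CPM (log2 change -0.80, adjusted p = 0.0143). Of 16 ER folding genes 6 fell (37.5%) and 1 rose (6.25%), median -0.47. Pdia6, a disulfide isomerase that acts with BiP, was at 149 ± 31.7 against 344 ± 26.2 CPM (log2 change -1.21, adjusted p = 0.000380), Creld2 at 19.5 ± 1.60 against 53.9 ± 7.17 CPM (log2 change -1.46, adjusted p = 0.000547) and Manf, a BiP-binding factor, at 55.1 ± 22.1 against 161 ± 31.3 CPM (log2 change -1.55, adjusted p = 0.00120). Of 14 genes of ER stress sensing and disposal 3 fell (21.4%), median -0.36, with Derl2 at 16.2 ± 3.14 against 56.5 ± 10.6 CPM (log2 change -1.80, adjusted p = 0.000340), Ern1 (IRE1) at 230.4 ± 92.7 against 442 ± 107 CPM (log2 change -0.94, adjusted p = 0.0269) and Sel1l at 76.7 ± 20.8 against 120.2 ± 19.0 CPM (log2 change -0.65, adjusted p = 0.0433). Other mitochondrial chaperones and proteases gave 2 rises (15.4%) and 1 fall (7.69%) of 13, median -0.14: the protease Htra2 was at 92.2 ± 26.1 against 46.3 ± 7.81 CPM (log2 change 0.99, adjusted p = 0.00703), the import motor subunit Pam16 at 37.3 ± 9.45 against 17.7 ± 5.85 CPM (log2 change 1.08, adjusted p = 0.0360) and the import receptor Tomm70a at 75.5 ± 21.0 against 141 ± 8.07 CPM (log2 change -0.90, adjusted p = 0.00497). Immediate early genes, which stress and cell handling also switch on, rose in 17 of 20 cases (85%), and their part in the results above was not tested. The 3 with the smallest p were Nr4a1, Zfp36 and Dusp2, the last at 2698 ± 225 against 140.2 ± 15.8 CPM (log2 change 4.27, adjusted p = 2.73e-08).

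Of the 23 genes named from these lists or for an overlap, 17 kept their side of the threshold under all 16 alternatives. No called gene among them changed sign, whereas Hsf1, which was not called, ranged from -0.37 to 0.20. The call of Ern1 was lost on leaving out AML1/ETO library 2 or 3 or control 1, 2, 4 or 5 (adjusted p = 0.0621 to 0.0965), that of Sel1l on leaving out AML1/ETO library 2 or 3 or control 1, 2, 4 or 5 (adjusted p = 0.0822 to 0.152) and that of Pam16 on leaving out AML1/ETO library 1 or 3 or control 3 or 4 (adjusted p = 0.0539 to 0.118). The call of Sel1l was also lost with DESeq2's size factors (adjusted p = 0.0714), without a filter (0.0530) and with the filter of 1 CPM in 3 libraries (0.0555). That of Pam16 was also lost with library totals alone (adjusted p = 0.0619) and without both libraries numbered 1 (0.101). Ahsa2 lost its call when AML1/ETO library 1 was dropped (adjusted p = 0.0743) or both libraries numbered 1 were (0.0750), Sugt1 when AML1/ETO library 3 was (adjusted p = 0.0557), and Cct2 when no filter was set (adjusted p = 0.0548).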

How the data were processed

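RNA-seq of sorted LSK cells was analysed in 3 AML1/ETO and 5 control libraries. The deposited values are raw read counts per gene, made by the authors with HISAT2 2.0.5 and featureCounts 1.5.0-p3 on mm10, per the submitters' processing notes. No source used here names the annotation release, the strand setting or the rule for multi-mapping reads. Library totals were 14693080 to 17527043 reads.

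Genes were filtered with filterByExpr, which left 15009 of 54532, scaled by TMM and tested with edgeR 4.0.16 (R 4.3.3), glmQLFit and glmQLFTest, group as the only term, with Benjamini-Hochberg adjustment over all tested genes and a threshold of 0.05. The SE is the log2 change divided by the square root of F. DESeq2 1.42.0, limma-voom (limma 3.58.1), other scalings, other filters and leaving out libraries were alternatives. Ratios of partner genes were compared by exact permutation tests. RPKM and coordinates used GENCODE M21 (mm10), and promoter windows RefSeq's GRCm38.p6 table. A planned search of protein motifs was not run, as no protein sequences were used here.

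The members, compartments and lists were chosen with earlier results of these data known. All members are named, and from each other list up to 3 called genes with the smallest p. On data simulated for this comparison over 15009 genes, edgeR recovered 20% of genes changed 2-fold, 54% at 4-fold, 64% at 8-fold and 80% at 16-fold. Genes simulated without a change made up 6.84% of its calls, against 32.8% of those of DESeq2 and 3.09% of those of limma-voom. Calls by DESeq2 are to be read with that share in mind. Counting limits cover counting error only.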

Additional observations from a re-analysis of the deposited data

Results flagged for a closer look

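In 67 control groups of 5 libraries, 1 for each member with a read, the gap of the highest or lowest library to its nearest neighbour was set against the whole range. In 4 genes it was larger than Dixon's limit of 0.71, and chance flags about 1 in 20 groups. Control 1 was low for Dnajc3, at 114 CPM (1947 reads) beside 164 to 181 CPM in the other controls. For 3 genes of very low level 1 control held every read of its group. Dnajb8 was at 1.26 CPM (22 reads) in control 5, Hspa12a at 0.586 CPM (10 reads) in control 2 and Hspb8 at 2.04 CPM (35 reads) in control 4, each with 0 reads in the other controls.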

How the results depend on the processing

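No member that rose or fell changed sign in any of the 16 alternatives, and 8 of the 18 were called in all of them: Hspa9, Dnajb1, Dnajb11, Dnajc9, Dnajc2, Hspa4l, Dnajb9 and Hspa12b. Leaving out 1 library at a time gave 4 to 7 members higher and 9 to 16 lower. Among cytosolic members 3 to 5 were then higher, with 3 without AML1/ETO library 2 or 3. Among ER members 1 to 2 were higher and 2 to 5 lower, with 2 higher without control 1, and 2 lower without AML1/ETO library 3 or control 2, 3 or 5. Among mitochondrial members 2 to 4 were lower, with 4 without AML1/ETO library 3 or control 1. Library totals alone left 3 cytosolic members higher, and moved the median of all genes by -0.15. Without both libraries numbered 1, 2 ER members were higher. The cause of these changes was not tested. Zeros in libraries of this depth limit what low genes can show.

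Same-numbered libraries of the 2 groups did not deviate together (correlations 0.04, -0.04 and 0.03), so the numbers were not taken as pairs. With the replicate number as a block, over the 6 libraries numbered 1 to 3, 1043 genes were higher and 939 lower. Of the members 3 were then higher and 5 lower: 2 cytosolic members higher and 3 lower, 1 ER member lower and 1 mitochondrial member lower. The calls lost in it were those of Hspa8, Dnajb4, Dnajb13, Hsp90aa1, Dnaja2, Dnajc8, Dnajc3, Hsp90b1, Hspa13 and Hspd1. Of the genes named from other lists Cct2, Sugt1, Ahsa2, Sel1l and Pam16 also lost their calls under the block. This fit has fewer libraries.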
